A study of Homo sapiens with 13 samples.

Results

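Genomic DNA from cells that had taken up a reporter library was compared, barcode by barcode and array by array, with the plasmid pool the library came from. The members were the 4 samples whose titles name the plasmid DNA and the 3 genomic DNA replicates of the integrated 5 bp library, of 13 samples in the series. Each designed array of transcription factor motifs, here called a construct, was carried by many plasmids, and each plasmid held a random barcode of 12 bp. The integrated table listed 16189 barcodes of 530 constructs, and the 513 constructs with at least 3 barcodes were compared by their sums, which left out 17 constructs with 1 or 2 barcodes.

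The cells were MEC1, an established human B cell line derived from chronic lymphocytic leukaemia. They carried a CRE recombinase kept under blasticidin and a landing pad, loxP-CMV-GFP-lox2272, in which a recombined plasmid takes the place of GFP. All the genomic DNA came from 8 transfections with 30 µg plasmid each. GFP-negative cells were sorted after 10 to 12 days, grown for 6 to 7 more days, and extracted in triplicate for RNA and genomic DNA together. Genomic DNA was amplified for 20 cycles from a primer in the reporter intron and for 9 index cycles, whereas the plasmid pool had 1 PCR of 8 cycles. Separate cultures are not stated for the triplicate, so p-values reflect how far 3 extractions differed, and that spread may be technical only. The plasmid pool was 1 sample and was taken to vary like the genomic DNA. The landing pad's genomic position is not given in the sources used here, and whether it lies in 1 clone is not stated either.

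In STARR-seq a candidate enhancer sits inside the transcript it drives, and the transcript counts are read against the DNA that was present. After recombinase-mediated cassette exchange that DNA is the integrated copy, so the genomic DNA is the denominator of the assay, and each barcode marks the cells descended from the integrations of that plasmid. The motifs belong to CTCF, which folds chromatin into loops and insulates domains, NFKB and IRF, which drive immune and inflammatory genes, PU1 and RUNX3, which direct blood cell development, FOXO, which acts below PI3K signalling, MEF2, a regulator of B cell and muscle genes, and MYC, a driver of cell growth. Array names give the motifs in order and end in the flanking context, 1 to 3, and the 3 constructs named rd carry no motif.

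The leading barcodes of the genomic DNA and of the plasmid pool are shown as examples of single barcodes. They were chosen for being extreme in 1 of the pools, and so they do not stand for the rest. The 5 with the highest mean in genomic DNA are given first and the 5 with the most plasmid reads after them, the latter chosen after their values were seen. All bases of a barcode are in capitals, as the whole barcode identifies the plasmid.
FOXO_NFKB_FOXO_NFKB_1: CACGGTACAGAA
MYC_MYC_MYC_MYC_3: GACCACGTTTCG
NFKB_MYC_NFKB_2: AAAACTGGACTC
RUNX3_PU1_RUNX3_1: TACACACCATGT
NFKB_FOXO_2: AAACTCGTTCGT
MYC_MYC_MYC_MYC_3: TGAGTTTCAGGT
MEF2_RUNX3_MEF2_2: GCGATATACATG
PU1_FOXO_PU1_3: CCTGCAAAAGGT
NFKB_MYC_NFKB_3: TTGGGTCAGTAG
FOXO_MEF2_3: CCAGTCTACATG

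The barcode CACGGTACAGAA stood at 1173, 843 and 905 RPM (reads scaled to the size of their library) in genomic DNA replicates 1, 2 and 3, the highest value in each replicate, yet it had only 34 plasmid reads and ranked 12345 of 16189 in the plasmid pool. GACCACGTTTCG, on an array of MYC motifs, stood at 672, 558 and 483 RPM with 136 plasmid reads. The other 3 leading barcodes had means between 413 and 464 RPM and between 59 and 98 plasmid reads. All 5 were high in every extraction, while their ranks in the plasmid pool ran from 3560 to 12345.

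The plasmid leaders mostly did not lead after integration. TGAGTTTCAGGT had the most plasmid reads, 836, and stood at 133, 120 and 150 RPM, rank 222 in genomic DNA. GCGATATACATG, with 831 plasmid reads, stood at 20.2, 20.0 and 10.3 RPM, rank 10570, below the median barcode in every replicate. TTGGGTCAGTAG, with 783, stood at 7.17, 43.5 and 4.67 RPM, so its 3 extractions differed more than 9-fold between highest and lowest. CCTGCAAAAGGT and CCAGTCTACATG had 811 and 747 plasmid reads and mean levels of 25.5 and 18.8 RPM.

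Across all barcodes each genomic DNA replicate was spread about as widely as the plasmid pool, with a slightly heavier upper tail. The mean of the 3 replicates was narrower, with an upper quartile 2.57 times the lower, against 3.5 times in the plasmid pool. The top 1% of barcodes held 7.08% of that mean. The median barcode stood at 20.7, 20.9 and 21.5 RPM in the 3 replicates, with middle quartiles from 10.5 to 37.4, 10.6 to 38.5 and 11.4 to 39.3 RPM. The plasmid pool had 1546708 reads over the listed barcodes, a median of 69 reads and quartiles of 36 and 126. The top 1% of barcodes held 7.94%, 7.25% and 7.30% of the genomic DNA reads against 5.40% of the plasmid reads, and 3011, 3065 and 3113 barcodes held 50% of the genomic DNA against 3333 in the plasmid pool. Only barcodes with at least 2 RPM in every genomic DNA replicate and at least 5 plasmid reads are listed, so barcodes lost at integration cannot be counted from this table. The listed barcodes held 48.8%, 49.4% and 50.6% of all genomic DNA reads, since their RPM sum to 487877, 493913 and 506222.

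Single barcodes varied widely between the extractions of genomic DNA. The coefficient of variation of a barcode over the 3 extractions had a median of 48.4% (quartiles 31.2% and 66.9%). The RPM values lie on a grid of equal steps of 0.124, 0.119 and 0.0864 RPM. If 1 step is 1 read, which cannot be seen directly because the lowest listed values lie 17 to 24 steps up, the median barcode had 167, 176 and 249 reads. Counting error would then give 7.74%, 7.54% and 6.34%, far below the spread observed. Reads carry no molecular identifiers and come from PCR, so such figures, and all intervals given here, cover counting error only.

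The replicates correlated at r = 0.51, 0.50 and 0.48 over the 16189 barcodes on the log2 scale. Between 56.7% and 57.8% of barcodes agreed within 2-fold in a pair of extractions, and between 12.9% and 13.8% differed more than 4-fold. The spread narrowed only among the most abundant barcodes. It was 48.4% for the 1780 barcodes with a mean of 2 to 10 RPM, 55.3% from 10 to 20 RPM, 49.3% from 20 to 50 RPM, 34.7% from 50 to 100 RPM and 23.7% for the 489 at 100 RPM or more. The lowest class is held in by the requirement of 2 RPM in each replicate.

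A barcode's level in genomic DNA hardly followed its level in the plasmid pool. Over the 16189 barcodes the correlation of log2 values was r = 0.07, 0.08 and 0.08 for the 3 replicates, and 0.09 for their mean. With the barcodes cut into 5 classes of about equal size by plasmid reads, the median ran from 19 plasmid reads in the lowest class to 207 in the highest, 10.9-fold. The median genomic DNA level ran over the same classes from 20.3 to 25.2 RPM, 1.24-fold, with 1.26, 1.29 and 1.25-fold in the single replicates. The classes between stood at 21.7, 21.3 and 22.4 RPM, so the step was largest into the highest class. Listed barcodes have passed a minimum in genomic DNA, and the effect of that filter on the relation was not tested.

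**Figure D1:**
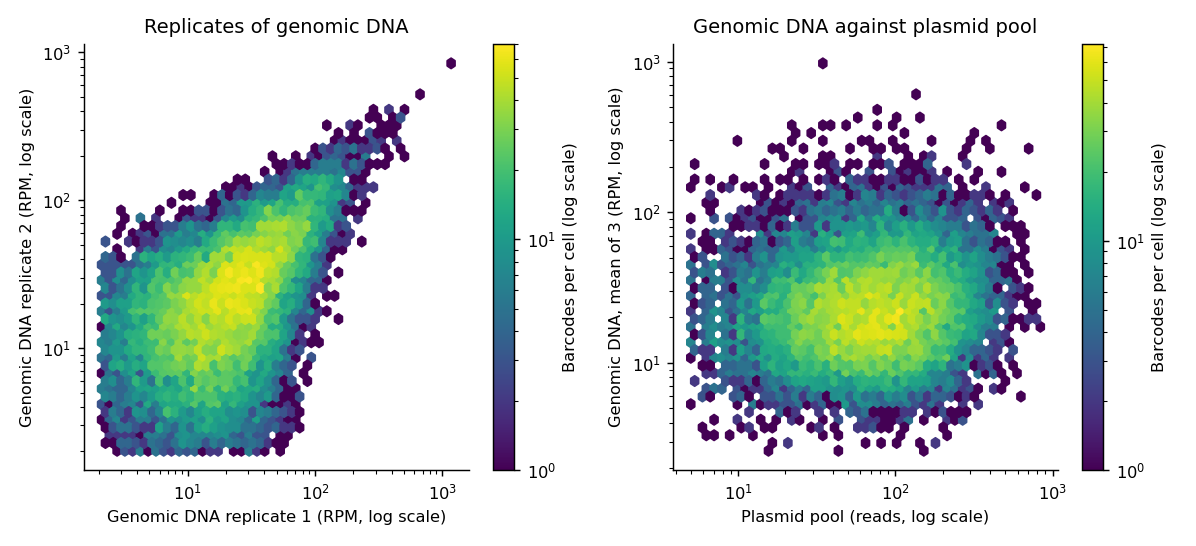
The left panel plots each barcode's RPM in genomic DNA replicate 1 (x axis) against replicate 2 (y axis), and the right panel its plasmid reads (x axis) against its mean genomic DNA RPM (y axis), all on log scales with colour for the number of barcodes in a cell. Replicates follow the diagonal loosely (r = 0.51 over 16189 barcodes), and the plasmid panel has almost no slope (r = 0.09).

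Which construct a barcode belonged to accounted for little of its level. Construct membership took 4.10% of the variance of log2 genomic DNA over the 16162 barcodes of the 513 constructs, or 0.96% after adjustment for the number of constructs. The values for log2 plasmid reads were 4.12% and 0.98%, and those for the log2 ratio of genomic DNA to plasmid were 4.01% and 0.87%. Barcodes of 1 construct therefore differed among themselves nearly as much as barcodes drawn from the whole library.

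Summed over the listed barcodes, constructs held similar shares of the plasmid reads and of the genomic DNA. The 3 genomic DNA replicates correlated at r = 0.97 in each pair over 513 constructs, and with the plasmid pool at 0.91, 0.92 and 0.91. Both sums run over the same listed barcodes, and the number of barcodes alone correlated at 0.95 with each sum, so this likeness is set largely by how many barcodes a construct has. Taken per barcode, the log2 plasmid and log2 genomic DNA levels of constructs correlated at r = 0.13. The log2 ratio of genomic DNA to plasmid, after each sample was scaled to the same total over the constructs, had a median of 0.01, quartiles of -0.24 and 0.24 and an SD of 0.46. It lay within 2-fold for 96.3% of constructs, with 13 constructs more than 2-fold higher and 6 more than 2-fold lower. The replicates' coefficient of variation fell with barcode number, from a median of 19.9% for the 67 constructs with 3 to 9 barcodes to 5.14% for the 19 with 80 or more.

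**Figure D2:**
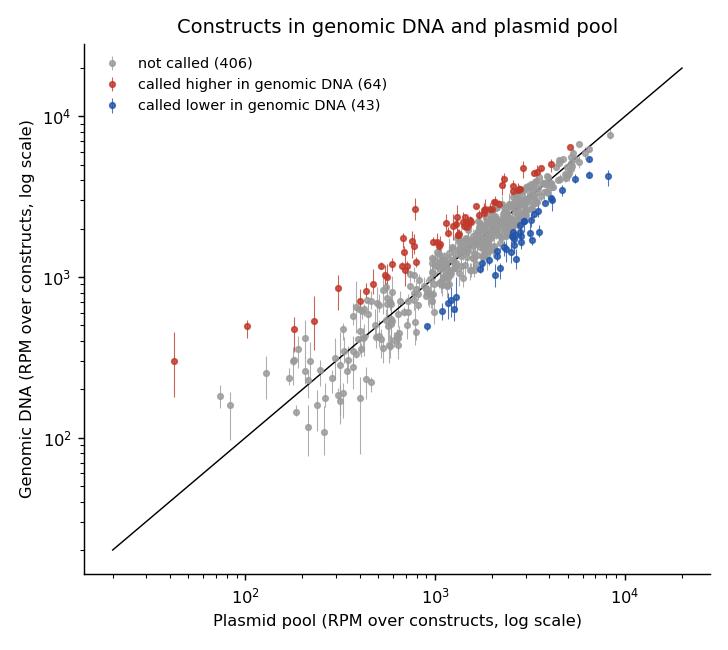
Each point is 1 of 513 constructs, with its plasmid level (x axis) and its mean genomic DNA level (y axis), both in RPM over constructs on log scales, and vertical lines span the lowest and highest of the 3 replicates. Most points follow the line of equality, 64 constructs (red) were called higher and 43 (blue) lower in genomic DNA.

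By limma at an adjusted p under 0.05, 64 of 513 constructs (12.5%) were higher in genomic DNA than in the plasmid pool and 43 (8.38%) were lower. These calls weigh the difference against the spread between extractions, with a median standard error (SE) of 0.17 on the log2 scale, and not against the spread between integrations. With log2 values averaged over barcodes in place of sums, limma called 0 constructs in either direction, with 101 at an unadjusted p under 0.05. Without replicate 3 the calls were 35 higher and 29 lower, and with ratios centred on the 3 constructs without a motif they were 198 higher and 12 lower.

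Since both sums cover the same barcodes, a construct's ratio is its genomic DNA per barcode over its plasmid reads per barcode, and both sides moved it. The ratio correlated at r = -0.67 with log2 plasmid reads per barcode and at 0.65 with log2 genomic DNA per barcode over 513 constructs, each of which is part of the ratio. Constructs called higher had a median of 78.9 plasmid reads and 39.9 RPM per barcode, those called lower 117.8 reads and 25.7 RPM, and those not called 93.0 reads and 29.4 RPM. The single largest barcode held a median of 18.5% of the genomic DNA of a construct called higher, 10.6% of one called lower and 13.0% of the others.

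Among constructs with at least 10 barcodes, the array alternating FOXO and NFKB motifs, FOXO_NFKB_FOXO_NFKB_1, stood highest. It held 785 RPM of the plasmid pool and 3107, 2257 and 2557 RPM of the 3 genomic DNA replicates, so all 3 lay far above the plasmid value. The log2 ratio was 1.74 ± 0.16 (SE; limma, adjusted p = 2.37e-16, and 0.0289 without the trend). Of its 15 barcodes, the barcode CACGGTACAGAA alone held 74.6% of its genomic DNA. Without the highest barcode of each construct the ratio was -0.056, so the excess of this array lay in 1 barcode.

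NFKB_CTCF_3, an NFKB motif followed by a CTCF motif, depended less on its leading barcode. It held 674 RPM in the plasmid pool and 1851, 1872 and 1508 RPM in genomic DNA, a log2 ratio of 1.36 ± 0.20 (SE; limma, adjusted p = 2.93e-08). Its largest barcode held 44.3% of its genomic DNA, and without that barcode the ratio was 0.77. The same motifs in contexts 1 and 2 gave 0.38 and 0.13, which limma did not call.

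The array alternating FOXO and PU1 motifs, FOXO_PU1_FOXO_PU1_2, held 309 RPM in the plasmid pool and 1034, 624 and 913 RPM in genomic DNA, a log2 ratio of 1.44 ± 0.29 (SE; limma, adjusted p = 6.99e-05). FOXO_RUNX3_FOXO_FOXO_2 held 518 RPM against 1238, 1125 and 1142 RPM, a log2 ratio of 1.17 ± 0.24. FOXO_MYC_FOXO_MYC_FOXO_2 held 755 RPM against 1931, 1778 and 1322 RPM, a log2 ratio of 1.13 ± 0.20, and it fell to 0.67 and lost its call with at least 20 plasmid reads per barcode. These arrays had 10 to 14 barcodes each, and in all 3 the genomic DNA replicates lay above the plasmid value.

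The homotypic RUNX3 array of 5 motifs, RUNX3_RUNX3_RUNX3_RUNX3_RUNX3_1, held 684 RPM in the plasmid pool and 1556, 1377 and 1395 RPM in genomic DNA. Its log2 ratio was 1.07 ± 0.21 (SE; limma, adjusted p = 3.93e-05), with 25.4% of its genomic DNA in 1 of 17 barcodes. The largest ratios of all belonged to constructs with 3 barcodes, which lie outside the rule for named constructs and were picked after their values were seen. MEF2_MEF2_1 stood at 42.1 RPM in the plasmid pool and 179, 265 and 457 RPM in genomic DNA, and FOXO_CTCF_FOXO_FOXO_1 at 102 RPM against 526, 542 and 421 RPM, log2 ratios of 2.71 and 2.26.

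The 6 constructs with the lowest called ratios among those with at least 10 barcodes had 114 to 205 plasmid reads per barcode, and no barcode held more than 19.7% of their genomic DNA. Lower ratios of -1.33 each, which limma did not call, belonged to MEF2_CTCF_MEF2_CTCF_1 and FOXO_PU1_FOXO_PU1_FOXO_2 with 3 barcodes each, picked after their values were seen. MEF2_3, a single motif for MEF2, held 8115 RPM in the plasmid pool and 4370, 3668 and 4649 RPM in genomic DNA, so each replicate lay far below the plasmid value. Its log2 ratio was -0.95 ± 0.11 (SE; limma, adjusted p = 3.19e-12, and 0.0413 without the trend) over 61 barcodes. Its plasmid reads per barcode were 205 and its genomic DNA 34.3 RPM per barcode, the latter above the median of constructs not called. The same motif in contexts 1 and 2 stood at -0.45 and -0.09, and limma called neither.

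FOXO_MEF2_3 held 2656 RPM in the plasmid pool and 1496, 1241 and 1126 RPM in genomic DNA, a log2 ratio of -1.05 ± 0.19 (SE; limma, adjusted p = 5.02e-06). The FOXO array with an NFKB motif at its centre, FOXO_NFKB_FOXO_2, held 2059 RPM against 1043, 1203 and 866 RPM, 0.499 times the plasmid level. FOXO_PU1_FOXO_1 held 3243 RPM against 1593, 1712 and 1803 RPM, a log2 ratio of -0.93 ± 0.16 over 44 barcodes. In these arrays the genomic DNA replicates all lay below the plasmid value, and between 6.41% and 11.9% of the genomic DNA came from 1 barcode.

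PU1_MYC_1 held 2209 RPM in the plasmid pool and 1231, 1203 and 979 RPM in genomic DNA, a log2 ratio of -0.96 ± 0.20. The alternating array FOXO_RUNX3_FOXO_RUNX3_FOXO_2 held 1257 RPM against 533, 634 and 723 RPM over 12 barcodes, a log2 ratio of -1.01 ± 0.27 (SE; limma, adjusted p = 0.00382). Without the barcode of most plasmid reads its ratio was -0.57 and the call was lost.

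Of the constructs without a motif, only rd_2 was called. The construct rd_1 held 2252 RPM in the plasmid pool and 1591, 1702 and 2054 RPM in genomic DNA, a log2 ratio of -0.35 ± 0.17 (SE; limma, adjusted p = 0.122). The construct rd_2 held 2806 RPM against 2025, 1980 and 1720 RPM, a log2 ratio of -0.56 ± 0.16, and it was called lower (adjusted p = 0.00505 by limma, 0.00300 to 0.240 over the alternatives). That call was lost with averaged log2 values (adjusted p = 0.240 by limma), with ratios centred on the 3 constructs (-0.26, 0.186) and without the trend (0.0863). The construct rd_3 held 3154 RPM against 3333, 3207 and 2882 RPM, a log2 ratio of -0.01, with its replicates on both sides of the plasmid value. The 3 had 39, 38 and 46 barcodes and a mean ratio of -0.31, so any centring on them lifts all other constructs by that amount.

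The spread of the ratio narrowed with the number of barcodes summed. Its SD was 0.78 over the 67 constructs with 3 to 9 barcodes, 0.55 over 87 with 10 to 19, 0.38 over 215 with 20 to 39, 0.30 over 125 with 40 to 79 and 0.21 over 19 with 80 or more. All 19 constructs beyond 2-fold had fewer than 40 barcodes, and 16 of them fewer than 20.

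**Figure D3:**
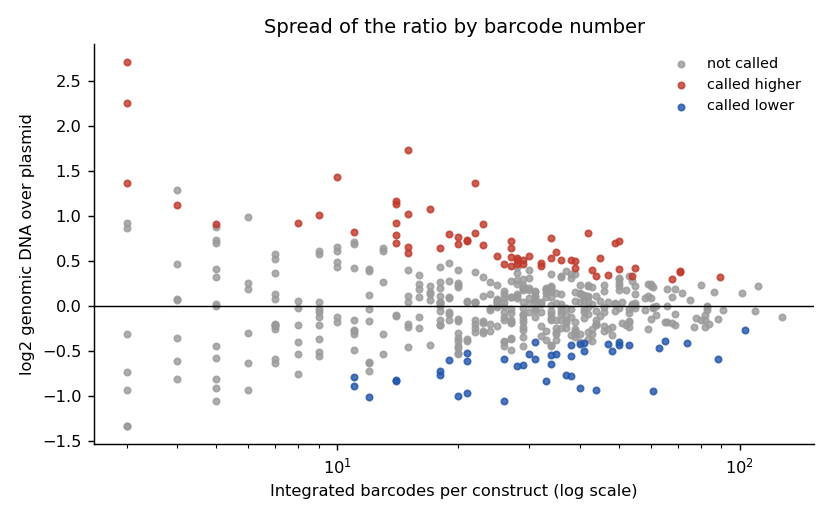
Each point is a construct, with its number of integrated barcodes on a log scale (x axis) and its log2 ratio of genomic DNA to plasmid (y axis), coloured by the limma call. The points narrow towards 0 from left to right, from an SD of 0.78 with 3 to 9 barcodes to 0.21 with 80 or more.

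Homotypic arrays, which hold 1 motif type, were compared by motif. Means of the log2 ratio over the constructs of a motif, with the SD over the 3 replicates, were 0.29 ± 0.07 for FOXO (15 constructs), 0.24 ± 0.04 for MYC (15) and 0.23 ± 0.04 for PU1 (11). They were 0.19 ± 0.05 for RUNX3 (15), 0.16 ± 0.07 for NFKB (15), 0.07 ± 0.07 for CTCF (11), 0.05 ± 0.17 for MEF2 (10) and -0.04 ± 0.06 for IRF (13). The mean over all 513 constructs was 0.02. Neighbours in this order differed by less than the larger of their SDs over replicates, except NFKB and CTCF. For NFKB and CTCF the SDs over constructs, 0.38 and 0.43, were larger than their difference. The motif means spanned 0.33, with spans of 0.45, 0.35 and 0.37 in the single replicates. The span was 0.56 with all constructs of at least 1 barcode, 0.57 with at least 20 barcodes and 0.53 without the barcode of most plasmid reads in each construct. The SD over the constructs of a motif ran from 0.27 for MYC to 1.02 for MEF2. Centring on the constructs without a motif adds 0.31 to each mean, which puts IRF above 0 as well.

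Among MYC arrays limma called 5 of 15 higher and 0 lower, among FOXO arrays 4 of 15 higher and 1 lower, and among RUNX3 arrays 4 of 15 higher and 0 lower, against 12.5% higher and 8.38% lower of all constructs. NFKB arrays had 2 of 15 called higher and PU1 arrays 1 of 11, with 0 lower in both. CTCF had 1 higher and 1 lower of 11, IRF 1 and 1 of 13, and MEF2 1 and 2 of 10. The MYC calls were small, from 0.30 for the array of 4 MYC motifs in context 1 to 0.75 for the array of 5 in context 3. The MEF2 arrays held the lowest single-motif construct and, with 3 barcodes, the highest construct of all, and their median was -0.02.

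Shares of the pool were also taken over all arrays holding a motif, alone or mixed. Arrays holding CTCF made up 19.4% of barcodes, 18.5% of plasmid reads and 19.0% of genomic DNA (18.9%, 19.2% and 18.9% in the replicates). Arrays holding MEF2 made up 15.3% of barcodes, 16.7% of plasmid reads and 15.3% of genomic DNA, with no replicate above 15.6%, so all 3 lay below the plasmid share. Arrays holding PU1 made up 18.8% of plasmid reads and 17.6% of genomic DNA, with replicates between 17.5% and 17.9%, whereas homotypic PU1 arrays made up 1.45% and 1.59%, the other direction. For NFKB, RUNX3, FOXO, IRF and MYC the 2 shares differed by less than 1 percentage point.

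**Figure D4:**
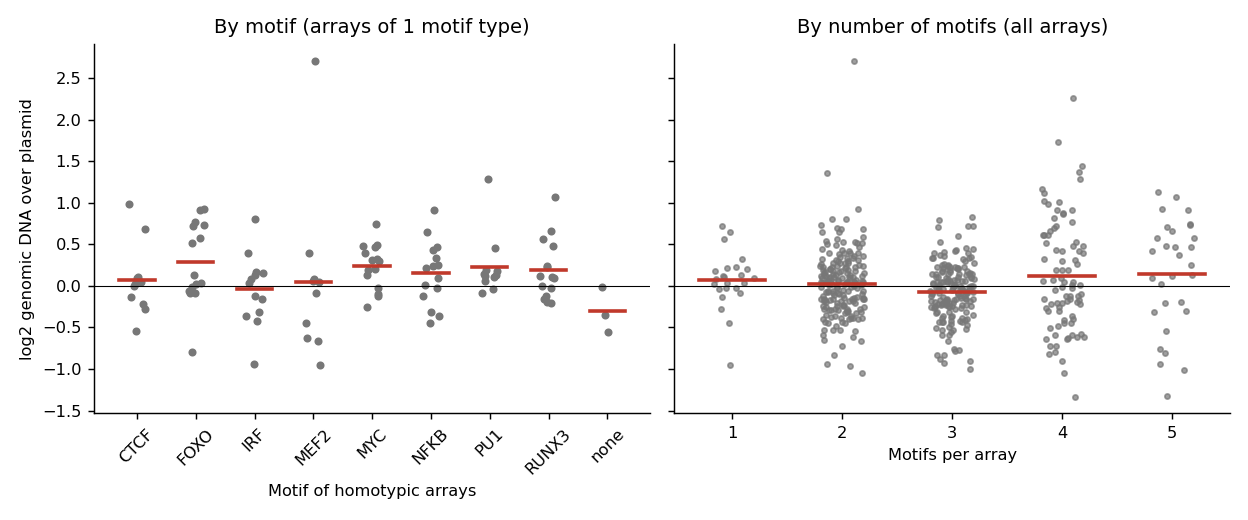
Each point is a construct's log2 ratio of genomic DNA to plasmid (y axis), by the motif of homotypic arrays (left) or the number of motifs in any array (right), and red bars are means. Motif means lie between -0.04 and 0.29, and the single constructs between -1.33 and 2.71.

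The ratio did not rise step by step with the number of motifs in an array. The mean log2 ratio was 0.07 ± 0.03 for arrays of 1 motif (24 constructs), 0.03 ± 0.02 for 2 motifs (192), -0.07 ± 0.02 for 3 motifs (178), 0.12 ± 0.05 for 4 motifs (86) and 0.15 ± 0.13 for 5 motifs (30; SD over 3 replicates). Arrays of 5 motifs minus arrays of 1 motif gave 0.18, -0.04 and 0.09 in the replicates, a mean of 0.08 that was smaller than its SD of 0.11. All 24 arrays of 1 motif were homotypic, but only 13 of the 30 arrays of 5 motifs were. This difference therefore mixes motif number with array make-up. The difference was larger with at least 20 barcodes per construct, 0.37, and without the barcode of most plasmid reads in each construct, 0.41. Among homotypic arrays alone, those of 5 motifs stood at 0.50 ± 0.13 (0.58, 0.34 and 0.56 in the replicates). Arrays of 1 motif stood at 0.07 ± 0.03 (0.07, 0.05 and 0.10). Homotypic arrays of 2, 3 and 4 motifs stood at 0.25 ± 0.01, -0.04 ± 0.01 and 0.15 ± 0.09, so there was no steady rise here either. Of the 13 homotypic arrays of 5 motifs, limma called 5 (38.5%) higher and 0 lower, against 12.5% and 8.38% of all constructs. Those 13 constructs had a median of 9 barcodes and 54.5 plasmid reads per barcode, against 29 barcodes and 69 reads overall.

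Homotypic arrays as a whole had a mean of 0.16 ± 0.04 (105 constructs, 19 higher, 5 lower) and mixed arrays -0.02 (405 constructs, 45 higher, 37 lower). The called shares were 18.1% higher and 4.76% lower of homotypic arrays and 11.1% and 9.14% of mixed arrays, against 12.5% and 8.38% of all constructs. By flanking context the means were 0.07, 0.02 and -0.03 for contexts 1, 2 and 3, with a largest difference of 0.10 ± 0.02 (SD, n = 3). The SDs over constructs were 0.54, 0.46 and 0.38 in the same order. Calls were 25 higher and 9 lower of 165 constructs in context 1, 28 and 20 of 180 in context 2, and 11 and 14 of 168 in context 3, against 12.5% higher and 8.38% lower of all constructs. These are 15.2% and 5.45% in context 1, 15.6% and 11.1% in context 2, and 6.55% and 8.33% in context 3. Of the 28 pairs of motifs in mixed arrays, 14 had a mean above 0. The means ran from -0.27 for MEF2 with PU1 (18 constructs) and -0.26 for PU1 with RUNX3 (12 constructs, 4 lower, 1 higher) to 0.22 for CTCF with FOXO (16) and 0.23 for CTCF with NFKB (12). PU1 was in both of the lowest pairs and CTCF in both of the highest, but their other pairs were spread widely. Pairs holding PU1 ran from -0.27 up to 0.06 with IRF, and pairs holding CTCF from -0.11 with MEF2 up to 0.23. The SD over constructs in the lowest and highest pairs named ran from 0.31 to 0.70, and the order was not tested.

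Barcode numbers were then set against the transient, episomal use of the 5 bp library, whose raw count table lists 492147 barcodes, 414895 of them with a construct name, over 542 constructs. Of the 16189 integrated barcodes, 10626 (65.6%) were listed there. Of 9495 that had a name in both tables, 9404 (99.0%) had the same construct name. In the 10 bp library, whose arrays differ, 345 barcodes (2.13%) were listed and 0 of the 294 named ones had the same construct name. The barcodes shared by both 5 bp plasmid pools had medians of 78 and 12 reads in the integrated and the episomal pool and correlated at r = 0.33, and construct sums correlated at 0.77.

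Among the 414895 named episomal barcodes, 9404 were listed with the same construct name in the integrated table, here called found, 2.27% (exact binomial 95% interval 2.22% to 2.31%). Listing needs at least 2 RPM in each genomic DNA replicate and at least 5 reads in the integrated plasmid pool, so this is not the share that integrated. The share rose steeply with the reads a barcode had in the episomal plasmid pool. It was 0.613% with 1 read, 1.19% with 3 to 4, 3.47% with 10 to 19 and 12.4% (11.1% to 13.7%) with 50 to 157. The median genomic DNA level of the barcodes found did not follow, at 24.4, 21.3, 22.2 and 24.8 RPM in the same classes. Both filters act on these values, since listing itself depends on plasmid reads and the level is seen only above the minimum, and their part was not tested.

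By motif, the share found ran from 1.70% (1.51% to 1.91%) for NFKB homotypic arrays to 3.84% (3.28% to 4.46%) for MEF2 and 5.46% (4.26% to 6.89%) for CTCF. IRF, FOXO, MYC, RUNX3 and PU1 lay between 2.06% and 2.74%. CTCF barcodes had a median of 12 episomal plasmid reads and NFKB barcodes 4, against 5 over all barcodes, and among barcodes with at least 20 such reads MEF2 and not CTCF had the highest share. Against the number expected from plasmid reads, the number found was 1.42 times as high for CTCF (67 found, 1.10 to 1.81) and 1.48 times for MEF2 (165 found, 1.26 to 1.72). For NFKB it was 0.889 (0.789 to 0.997), and for homotypic arrays of the other 5 motifs the intervals included 1. Over all arrays holding a motif, alone or mixed, CTCF stood at 1.16 (1.07 to 1.24) and MEF2 at 1.02 (0.971 to 1.07). NFKB stood at 0.982 (0.945 to 1.02) and FOXO at 0.933 (0.898 to 0.969), and the intervals of the other motifs included 1. Arrays of 4 and 5 motifs stood at 0.926 (0.860 to 0.996) and 0.875 (0.757 to 1.01), and homotypic arrays of 5 motifs at 0.777 (0.630 to 0.949). Contexts 1, 2 and 3 had 2.31%, 2.23% and 2.26% found.

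**Figure D5:**
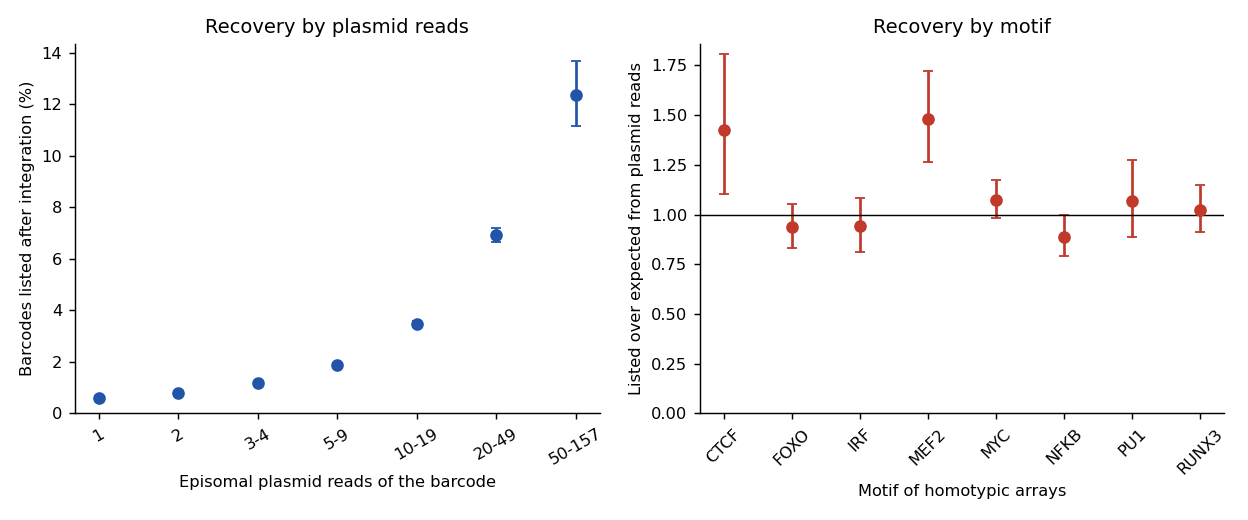
The left panel gives the percent of named episomal barcodes listed in the integrated table (y axis) by their episomal plasmid reads (x axis), and the right panel the number listed over the number expected from plasmid reads (y axis) by motif of homotypic arrays (x axis), with exact 95% intervals for counting error. The percent rises from 0.613 to 12.4, and CTCF and MEF2 lie above 1.

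The episomal table itself was not neutral to motif. Each of its barcodes had at least 1 read in the plasmid library and in both mRNA libraries, so a barcode without mRNA was not listed, while 63.4% of integrated barcodes had no mRNA in any replicate and were listed. Only 27.8% of the integrated barcodes of arrays holding CTCF were in the episomal table, against 82.1% of those holding NFKB. Arrays holding CTCF made up 19.4% of integrated barcodes, 4.19% of episomal barcodes and 7.41% of episomal plasmid reads, and those holding NFKB 22.1%, 33.2% and 27.8%. For homotypic arrays the share in the episomal table ran from 25.5% for CTCF, 55.7% for RUNX3 and 59.0% for PU1 to 72.0% for FOXO and 87.8% for NFKB. The part of this listing in the motif differences was not tested, and it cannot be told apart here from a difference between the 2 plasmid pools.

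Among arrays with at least 100 episomal barcodes, the most integrated barcodes per 100 episomal ones belonged to 4 arrays with CTCF at both ends, each of which the episomal table lists in context 2 only. CTCF_IRF_CTCF_2 had 54 integrated and 125 episomal barcodes, 43.2 per 100, CTCF_RUNX3_CTCF_2 had 39.8, CTCF_MEF2_CTCF_2 37.7 and CTCF_PU1_CTCF_2 36.9, against a median of 3.46 over 485 arrays. CTCF_CTCF_CTCF_3, in context 3, had 36.5. The barcodes of those 4 arrays in context 2 stood at 23.7 to 33.0 RPM on average, close to other arrays. Integrated barcodes here include those not in the episomal table. With only barcodes in both counted, found over expected from plasmid reads was 0.773 for CTCF_IRF_CTCF_2, with 4 found. It was 1.32 for CTCF_RUNX3_CTCF_2, 2.03 for CTCF_MEF2_CTCF_2 and 2.88 for CTCF_PU1_CTCF_2. The fewest belonged to arrays with FOXO or NFKB motifs only or FOXO with 1 partner. FOXO_IRF_FOXO_IRF_FOXO_2 had 1 integrated barcode of 183 episomal, 0.546 per 100, FOXO_FOXO_FOXO_FOXO_FOXO_2 had 0.838, FOXO_NFKB_FOXO_1 had 0.865 and NFKB_NFKB_NFKB_NFKB_1 had 0.868.

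The number of integrated barcodes of a construct followed its episomal plasmid reads, with r = 0.80 over 530 constructs on the log2 scale. Of the 542 constructs, 12 had no integrated barcode, all of them with few episomal barcodes, 6 to 86 with a median of 26.5 against 659 over all constructs. For the one with the most episomal barcodes, MEF2_NFKB_MEF2_NFKB_MEF2_2 with 0 of 86 found, 2.12 were expected from plasmid reads, and its exact binomial interval included the 2.27% found overall. All but 1 of these arrays hold MEF2, and the other is the array of 5 PU1 motifs in context 1. Counting those with 1 or 2 barcodes, 29 constructs had fewer than 3. All 29 are arrays of 4 or 5 motifs, of which the library has 145. Of the 29, 22 hold MEF2, as do 148 of the 542 constructs of any length. How many of the 145 longer arrays hold MEF2 was not counted, so the 22 are not set against arrays of like length.

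Level and share found differed little by base composition, a property of the barcode that played no part in the choice of members. Barcodes with 0 to 3, 4 to 5, 6, 7 to 8 and 9 to 12 G or C bases had median levels of 22.7, 22.0, 22.3, 22.1 and 21.5 RPM. The class with 9 to 12 was the lowest in each replicate, at 19.4, 20.3 and 20.8 RPM, and the difference in level was not tested. Of the episomal barcodes in these classes 2.28%, 2.20%, 2.30%, 2.31% and 2.25% were found, with overlapping intervals. The mRNA, measured from the same extractions, was detected more often for abundant barcodes. A read in at least 1 mRNA replicate was seen for 25.6% of barcodes with 2 to 10 RPM in genomic DNA, 28.6% with 10 to 20, 39.4% with 20 to 50, 53.3% with 50 to 100 and 65.8% with 100 RPM or more. The 10264 barcodes without mRNA had a median of 19.9 RPM in genomic DNA and the 1097 with mRNA in all 3 replicates 40.1 RPM, while their median plasmid reads, 67 and 77, differed little. Even the most abundant barcode, CACGGTACAGAA, was listed at 0 mRNA in all 3 replicates, as was AAACTCGTTCGT, whereas TACACACCATGT stood at 10048, 7993 and 10121 RPM in mRNA.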

How the data were processed

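The authors deposited RPM values (reads scaled to the total of each library) for genomic DNA and mRNA and whole-number plasmid counts per barcode of the integrated library, and raw counts per barcode for the episomal libraries, per the file headers. The sources used here do not name a barcode counter, aligner or build, and 11 columns of per-sample values were not used. Genomic DNA RPM and plasmid counts were summed per construct over listed barcodes, constructs with at least 3 barcodes were kept, and each sample was scaled to the same total (RPM over constructs). limma 3.58.1 (R 4.3.3; lmFit, eBayes with trend) compared 3 genomic DNA samples with 1 plasmid sample on log2(RPM + 0.5), with Benjamini-Hochberg adjusted p under 0.05, so folds of low constructs are understated. The procedure was tested on simulated data. There the plasmid sample varied like the genomic DNA replicates, so that assumption was not tested. Since values are RPM, no count test was run. Means and SDs, binomial (Clopper-Pearson) and Poisson 95% intervals were computed in Python 3.11.15 with scipy 1.17.1. Barcodes were matched between tables by sequence and construct name, and expected numbers came from the share found in 7 classes of plasmid reads. Named constructs were the 3 without a motif, the 6 highest and 6 lowest called ratios with at least 10 barcodes and the same sign in all replicates, the 4 arrays each with the most and fewest integrated barcodes among those with at least 100 episomal ones, and the 5 barcodes highest in genomic DNA. The members, groups and rules were chosen with earlier results of these data known. Alternatives covered the pseudocount, barcode and read minimums, scaling, summing, the trend and each replicate left out.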

Additional observations from a re-analysis of the deposited data

How the results depend on the processing

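Pseudocounts of 0.1 and 5 and a minimum of 5 plasmid reads, which every listed barcode meets, left the 64 higher and 43 lower constructs as they were. Limma called 37 higher and 21 lower with ratios centred on the median construct, 198 and 12 centred on the constructs without a motif, 24 and 13 without the trend, 0 and 0 with log2 values averaged over barcodes (101 at an unadjusted p under 0.05), and 26 lower with at least 20 plasmid reads per barcode. Leaving out 1 replicate gave 35 to 64 higher and 29 to 49 lower, the fewest without replicate 3. The span of the motif means was 0.56 with at least 1 barcode per construct, 0.57 with at least 20, 0.48 with at least 20 plasmid reads, 0.53 without the top plasmid barcode of each construct, 0.46 without the top genomic DNA barcode and 0.25 with averaged log2 values. Arrays of 5 minus 1 motif gave 0.37 with at least 20 barcodes and 0.41 without the top plasmid barcode. The largest context difference was 0.15, 0.061, 0.074, 0.077 and 0.078 under the first 5 of the settings given for the motif means. The ratio of rd_3 turned to 0.0034 with at least 20 barcodes, 0.30 centred on the constructs without a motif, 0.12 with averaged log2 values and 0.038 without the top genomic DNA barcode, and ran from -0.053 to 0.052 over the replicates left out. FOXO_NFKB_FOXO_NFKB_1 turned to -0.072 with averaged log2 values and -0.056 without its top genomic DNA barcode. The share of episomal barcodes found was 3.27% with at least 5 and 7.32% with at least 20 episomal plasmid reads. Of 219 values of the 15 named constructs under alternatives, 196 kept direction and call, 16 lost the call and 7 turned. Leaving out the top genomic DNA barcode was added after seeing the data, as were the numbers expected from plasmid reads and the percent of integrated barcodes in the episomal table. A count test was not run because the worth of 1 read is not seen directly. No paired analysis was possible because the plasmid pool is 1 sample and carries no replicate number. The causes were not tested.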
